A study of Mus musculus with 2 samples.

Results

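The lipid-handling macrophage genes are 10 genes, Trem2, Apoe, Gpnmb, Lpl, Fabp5, Cd36, Abca1, Abcg1, Plin2 and Lipa, taken by gene symbol from the 32285 genes counted. All 10 were found. They were followed through single-cell RNA sequencing of 2 mouse pancreatic tumours. KPC cells, a line from a genetically engineered mouse model of pancreatic cancer that uses Pdx-1-Cre, were grown in the pancreas after receiving a control vector (KPC-shV) or, in the other group, a Zeb1 hairpin (KPC-shZEB1), and 1 tumour per group was sequenced. According to the text of the study, mice of both groups received gemcitabine, which the sample labels do not mention. The methods list young C57BL/6J, BALB/c and NSG mice without saying which strain was sequenced. The study's results describe the experiment that gave the sequenced tumours as one in immunocompetent mice. With 1 library per group, mouse, tumour, library and group cannot be told apart. No difference below has a replicate check, no test was made, and the 95% intervals in parentheses cover counting error only.

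Macrophages take up lipoproteins, modified lipids and dying cells, break the lipid down in lysosomes and then store it in droplets, burn it or pass it back to lipoproteins. Trem2 is a surface receptor that senses lipids and signals through the adaptor Tyrobp, and macrophages loaded with lipid in tumours, fat and plaques are known for high Trem2 and Gpnmb. Cd36 is a fatty acid and lipoprotein receptor, and Lpl is a secreted lipase that frees fatty acids from triglyceride-rich lipoproteins. Fabp5 carries fatty acids inside the cell, Plin2 coats lipid droplets, and Lipa is the acid lipase of the lysosome. Abca1 and Abcg1 export cholesterol to lipoproteins, for which Apoe is an acceptor and carrier. Gpnmb is a glycoprotein of lysosomes and the cell surface.

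After filtering, the library labelled KPC-shV held 11398 cells and that labelled KPC-shZEB1 held 12104, with medians of 3720 and 4252 UMIs (unique molecular identifiers, each standing for 1 captured RNA molecule). Zeb1, the target of the hairpin, was not lower under the KPC-shZEB1 label. Tumour-like cells held 128 and 154 CPM of it (UMIs of the gene per 1000000 UMIs of the class), a ratio of 1.2 (1.14–1.26). Monocyte-macrophage-like cells held 46.5 and 72.4 CPM, a ratio of 1.56 (1.45–1.67). T-like cells, 415 and 1296 in number, held far more Zeb1, at 1351 and 1523 CPM. The part of RNA from T-like cells in the tumour-like levels was not tested, nor was the effect of the hairpin. The libraries are therefore called by their labels, and paired values give the library labelled KPC-shV first and ratios divide the second by the first. Monocyte-macrophage-like cells were 1616 (14.2% of cells) and 2517 (20.8%), with medians of 13295 and 14508 UMIs, and came from 3 of 28 clusters. All members were kept out of the genes used for clustering.

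Promoter sequence is shown for 3 members: Trem2, the sensor, Gpnmb, the member with the largest fold between 1 macrophage state and the others pooled in both libraries, and Abca1, which was highest in another state. RefSeq windows on GRCm38.p6 were matched for 7 of the 10 members, and none was matched for Lpl, Fabp5 and Abcg1. The stretches are the 150 bases before the RefSeq start of Trem2 (chr17:48346251-48346400, plus strand), Gpnmb (chr6:49036368-49036517, plus strand) and Abca1 (chr4:53159896-53160045, minus strand), each written along the gene's own strand. Capitals mark matches, on either strand, to 6 motifs. These were CACGTG, the E-box of the MiT/TFE and USF factors, then AGGTCA, a half-site of nuclear receptors, then TGANTCA for AP-1 factors, where N stands for any base. The others were GAGGAA, a core of the PU.1 site, then TATAAA, the TATA box, and finally CCAAT.
Trem2: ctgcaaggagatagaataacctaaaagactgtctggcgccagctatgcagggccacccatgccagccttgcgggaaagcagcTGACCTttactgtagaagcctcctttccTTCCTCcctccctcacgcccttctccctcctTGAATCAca
Gpnmb: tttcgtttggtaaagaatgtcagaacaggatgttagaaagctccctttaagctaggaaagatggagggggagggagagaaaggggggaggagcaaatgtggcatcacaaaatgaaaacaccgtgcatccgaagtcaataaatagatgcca
Abca1: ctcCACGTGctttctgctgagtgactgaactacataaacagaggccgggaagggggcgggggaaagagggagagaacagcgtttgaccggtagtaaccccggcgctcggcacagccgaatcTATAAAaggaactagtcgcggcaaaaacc
The Trem2 stretch held a half-site starting at position -68, a PU.1 core at -40 and a match to the pattern TGANTCA at -9, counted back from the start, and none of the 3 overlaps another. The open base N of that last match is A, so it fits the pattern only in this loose form. The Abca1 stretch held the E-box at -147 and a TATA box at -29. No motif on the list matched the Gpnmb stretch, nor the 250 bases before its start. Among 32851 promoter windows, the 250 bases before the start held the half-site in 14.0%, the PU.1 core in 23.3%, the AP-1 letters in 6.75%, the E-box in 6.02%, the TATA box in 12.4% and CCAAT in 33.8%. A match is a description of letters only.

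Read against its name, the set was only in part a macrophage set. Among the 10 cell classes with at least 50 cells in each library, monocyte-macrophage-like cells held the highest level of 5 members in both libraries: Trem2, Apoe, Gpnmb, Abca1 and Lipa. The other 5 were highest elsewhere: Lpl in fibroblast-like cells, Fabp5 and Cd36 in dendritic-like cells, Plin2 in granulocyte-like cells, and Abcg1 in granulocyte-like cells of the first library and in endothelial-like cells of the second. The plot of members by cell class shows this order.

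**Figure D1:**
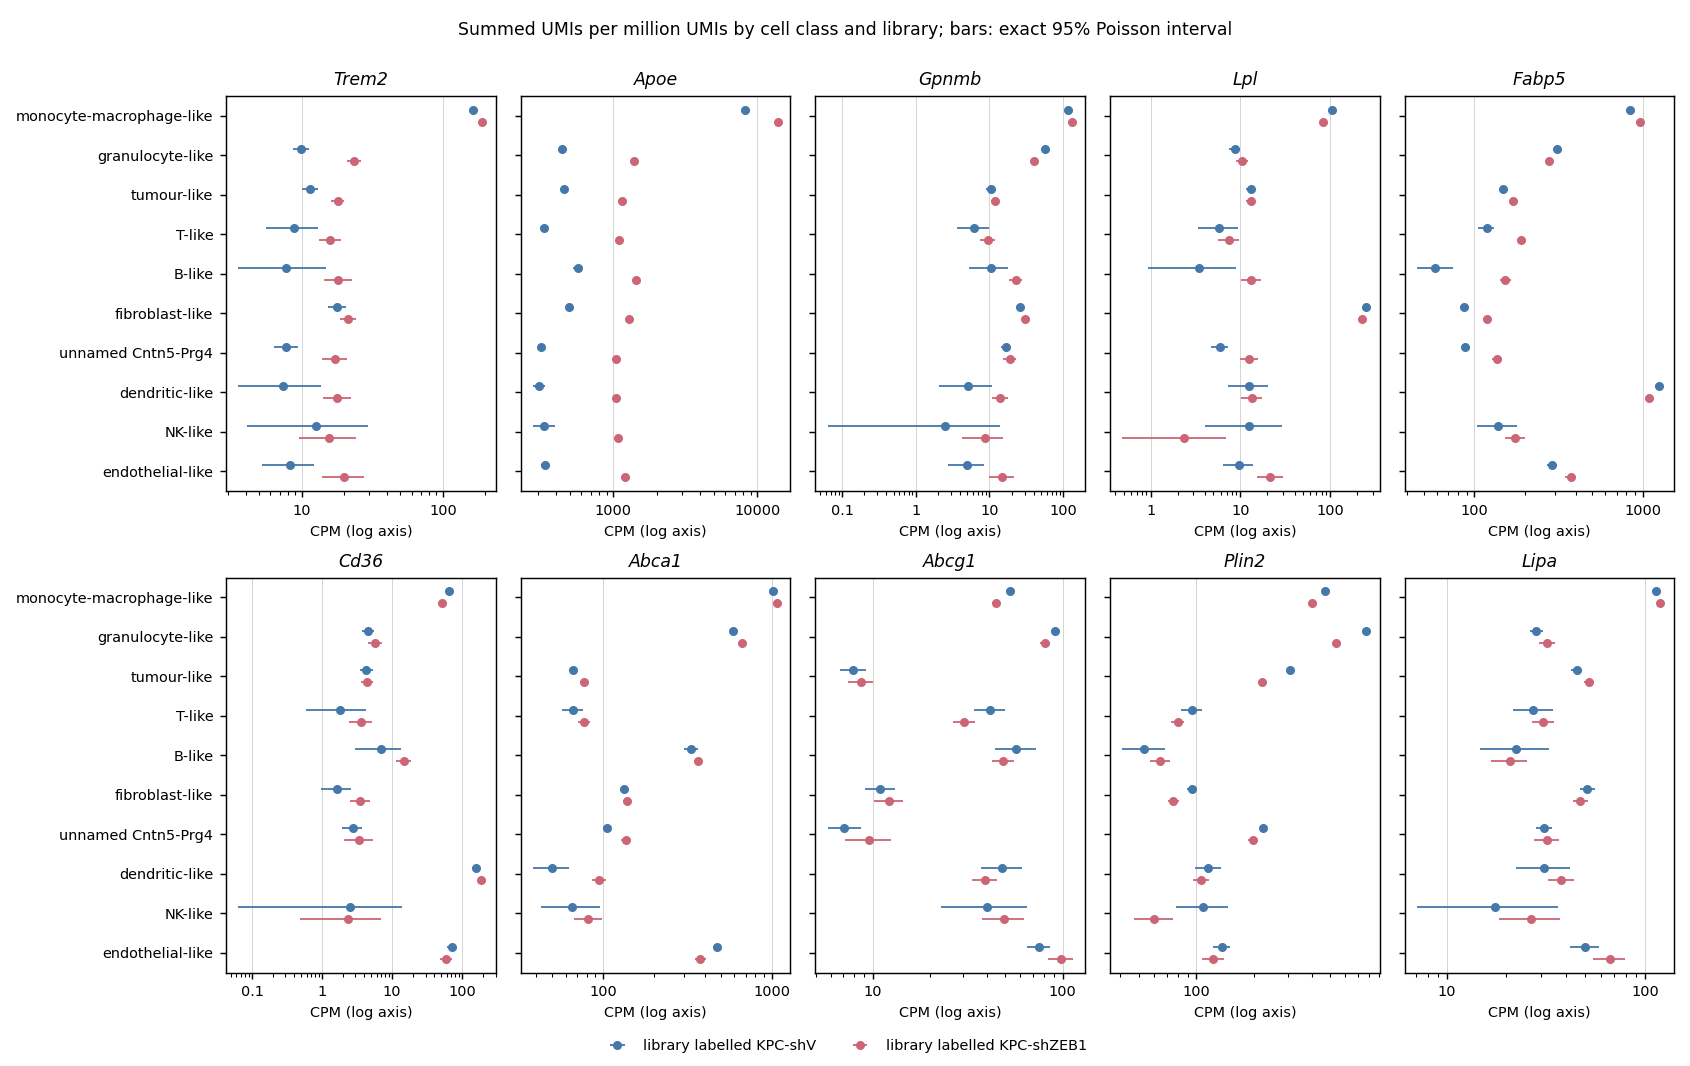
Level of each member in CPM (log axis) in 10 cell classes; blue points are the library labelled KPC-shV and red points that labelled KPC-shZEB1, and bars are exact 95% Poisson intervals. Trem2, Apoe, Gpnmb, Abca1 and Lipa are highest in monocyte-macrophage-like cells, Lpl in fibroblast-like cells, and Apoe is higher in every class of the library labelled KPC-shZEB1.

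Trem2 (ENSMUSG00000023992, chromosome 17 from 48346401 to 48354147, plus strand, GRCm38) reached 163 CPM in the monocyte-macrophage-like cells labelled KPC-shV and 189 CPM in those labelled KPC-shZEB1. In the 9 other classes it lay between 7.40 and 17.9 CPM and between 15.6 and 23.4 CPM. Monocyte-macrophage-like cells thus held 82.0% and 82.8% of each library's Trem2 UMIs. A Trem2 UMI was seen in 65.8% and 74.5% of them, against 5.54% and 8.72% of T-like cells, a type that should lack the gene, whose median depths were 5315 and 4863 UMIs. With each cell thinned to 1000 UMIs the shares were 14.5% and 15.9% against 0.964% and 2.08%.

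Apoe (ENSMUSG00000002985, chromosome 7 from 19696109 to 19699188, minus strand) reached 8227 CPM in the monocyte-macrophage-like cells labelled KPC-shV and 13926 CPM in those labelled KPC-shZEB1, so that 0.823% and 1.39% of all their UMIs came from this gene. The highest other class in both libraries, B-like cells, held 569.6 and 1429.8 CPM. The 9 other classes spanned 307 to 569.6 CPM in the library labelled KPC-shV, against 1039 to 1429.8 CPM in the other. At least 72.9% of cells of every other class carried an Apoe UMI in the former, and at least 97.5% in the latter. The ratio was above 1 in all 9 other classes, from 2.51 (B-like) to 3.55 (endothelial-like), and each of these ratios was above that in monocyte-macrophage-like cells, 1.69 (1.68–1.70). Monocyte-macrophage-like cells held 23.2% and 32.6% of all UMIs, and 85.5% and 84.8% of the Apoe UMIs. The part of the Apoe seen outside macrophages in the macrophage ratio was not tested. With the B-like level of the same library subtracted, the macrophage levels were 7657 and 12496 CPM, a ratio of 1.63.

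Gpnmb (ENSMUSG00000029816, chromosome 6 from 49036546 to 49070929, plus strand) had levels of 117 and 131 CPM in monocyte-macrophage-like cells and, next, in granulocyte-like cells, of 57.1 and 40.5 CPM. Few cells carried much of it: 22.0% and 30.4% of monocyte-macrophage-like cells had a UMI, and the 5 richest cells held 29.5% and 10.4% of their Gpnmb UMIs. Abca1 (ENSMUSG00000015243, chromosome 4 from 53030787 to 53159895, minus strand) stood at 1013 and 1079.9 CPM, above granulocyte-like cells at 589.7 and 666 CPM. It was found at 475 and 376 CPM in endothelial-like cells and at 333 and 366 CPM in B-like cells, and in no other class above 139 CPM. Lipa (ENSMUSG00000024781, chromosome 19 from 34492318 to 34527474, minus strand) had levels of 113 and 119 CPM, with every other class between 17.6 and 66.3 CPM.

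Lpl (ENSMUSG00000015568, chromosome 8 from 68880491 to 68907448, plus strand) was largely found in 2 classes. Fibroblast-like cells held 249.9 and 228 CPM, and monocyte-macrophage-like cells 106 and 82.4 CPM. No other class passed 21.5 CPM. Monocyte-macrophage-like cells held 42.4% and 49.3% of all Lpl UMIs.

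Fabp5 (ENSMUSG00000027533, chromosome 3 from 10012548 to 10016607, plus strand) had levels of 1242 and 1084 CPM in dendritic-like cells and of 842 and 958 CPM in monocyte-macrophage-like cells. Granulocyte-like cells and endothelial-like cells came next, at 308 and 278 CPM and at 288 and 372 CPM. The annotation holds 1 pseudogene named for Fabp5, and reads that match both could have been lost in counting. Cd36 (ENSMUSG00000002944, chromosome 5 from 17781690 to 17888801, minus strand) had levels of 159 and 189 CPM in dendritic-like cells. Endothelial-like cells held 71.1 and 58.5 CPM and monocyte-macrophage-like cells 64.3 and 51.7 CPM. The last 2 classes do not separate beyond counting error in either library.

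Plin2 (ENSMUSG00000028494, chromosome 4 from 86648386 to 86670060, minus strand) had levels of 771 and 535 CPM in granulocyte-like cells, of 471 and 402 CPM in monocyte-macrophage-like cells and of 306 and 221 CPM in tumour-like cells. In each of the 3 the level labelled KPC-shZEB1 was the lower. The ratio was 0.694 (0.675–0.713) in granulocyte-like cells, 0.721 (0.694–0.749) in tumour-like cells and 0.853 (0.832–0.874) in monocyte-macrophage-like cells. Across the 9 other classes it was below 1 with an interval clear of 1 in 6 and above 1 in none with such an interval. Abcg1 (ENSMUSG00000024030, chromosome 17 from 31057675 to 31117988, plus strand) was the member for which monocyte-macrophage-like cells stood lowest among the classes. They had rank 4 of 10 classes, at 53.0 CPM, and rank 5 in the other library, at 44.6 CPM. Granulocyte-like cells held 91.3 and 80.7 CPM, endothelial-like cells 75.1 and 97.8 CPM and B-like cells 56.9 and 48.6 CPM. The rRNA gene Gm25447 lies inside Abcg1 on the same strand in the annotation and is not among the genes counted here.

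The comparison the design implies is the level of each member in monocyte-macrophage-like cells between the libraries. Apoe was the 1 member of 10 past 1.5-fold, and higher in the library labelled KPC-shZEB1. None was past 1.5-fold lower. All 10 had a mean of at least 10 CPM, the minimum for this count, and of all 7871 genes that met it 2.1% (165) were at least 1.5-fold higher and 0.711% (56) at least 1.5-fold lower. The median log2 ratio of the members was 0.08, and that of all 7871 genes 0.01. The log2 ratio of Apoe, 0.76, stood at percentile 98.7 of these genes.

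**Figure D2:**
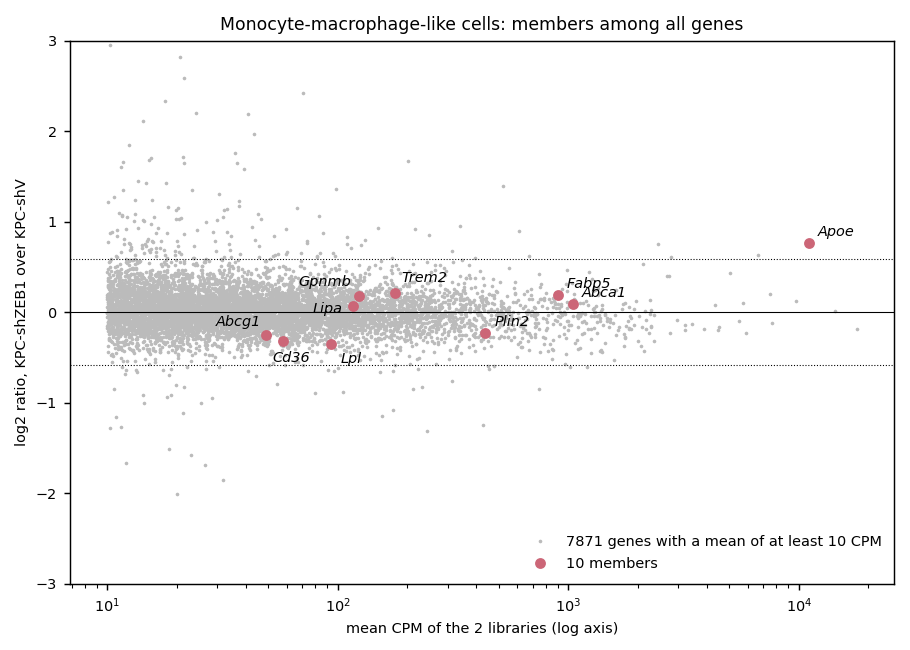
Log2 ratio of CPM between the libraries in monocyte-macrophage-like cells against mean CPM (log axis); grey points are 7871 genes with at least 10 CPM, red points the members, dotted lines 1.5-fold, and 2 genes lie beyond the plotted log2 range of 3. Apoe alone among the members lies past a dotted line.

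The other 9 members lay within 1.5-fold on both sides. Trem2 had a ratio of 1.16 (1.11–1.21), Fabp5 of 1.14 (1.12–1.16), Gpnmb of 1.13 (1.08–1.18), Abca1 of 1.07 (1.05–1.08) and Lipa of 1.05 (0.997–1.10), the last within counting error. These 5 and Apoe are the sensor, the lysosomal members, the carrier Fabp5 and the exporter Abca1. Over 16 other settings of the processing the Gpnmb ratio ran from 1.02 to 1.43, which is wider than its counting interval. On the lower side stood the droplet protein Plin2, given above, with the exporter Abcg1, at 0.842 (0.782–0.906), the receptor Cd36 at 0.804 (0.752–0.860) and the lipase Lpl at 0.781 (0.740–0.823). The direction of Cd36 turned to a ratio of 1.05 when each cell was thinned to 1000 UMIs. The share of monocyte-macrophage-like cells with a Cd36 UMI was 18.3% and 20.1%, and 3.71% and 3.66% after thinning.

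Markers of other cell types were also found within the class. The summed level of 8 acinar markers was 33.9 and 247 CPM, that of 9 granulocyte markers 1451 and 932 CPM, that of 7 T-cell markers 16.6 and 45.9 CPM, and that of 8 tumour markers 318 and 397 CPM. For 7 fibroblast markers it was 476 and 589 CPM, for 10 dendritic markers 154 and 201 CPM, for 8 B-cell markers 92.3 and 143 CPM and for 8 endothelial markers 73.2 and 70.4 CPM. The 11 markers of the class itself summed to 7591 and 9665 CPM. None of these markers was at 0. Of 5 adipocyte markers, a source of Lpl, Cd36 and Plin2, Adipoq and Lep were at 0 in both libraries, and the summed level was 19.3 and 17.9 CPM. Of that, Fabp4 made 19.0 and 17.2 CPM. The part of these cell types in the ratios was not tested.

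The class was divided into 13 sub-clusters, of which 11 had at least 50 cells in each library. Each is called by its 2 leading genes, and 7 of the 13 took a name from markers. Since the states were found in the same cells, differences between states are descriptions. The 11 are the complement macrophage-like Ccl8-Vcam1 cells, the resident macrophage-like Bmp2-Lyve1 and Lyve1-Fcna cells, the monocyte-like Vcan-Plcb1, Ly6c2-Ly6i and Chil3-Plcb1 cells, the cycling macrophage-like Pclaf-Hist1h1b cells, and the unnamed Plet1-Adamdec1, Nos2-Ccl5, Pf4-Fcrls and Atp6v0d2-Mmp12 cells.

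Of the 10 members, 8 were highest in the same state in both libraries. Apoe and Abca1 were highest in the complement macrophage-like cells and lowest in the monocyte-like Chil3-Plcb1 cells, while Trem2, Gpnmb, Lpl, Fabp5, Abcg1 and Plin2 were highest in the Atp6v0d2-Mmp12 cells in both libraries. Lipa was highest in the Nos2-Ccl5 cells of the first library, at 167 CPM, and in the Atp6v0d2-Mmp12 cells of the second, at 203 CPM, and Cd36 in the Atp6v0d2-Mmp12 cells and then in the Chil3-Plcb1 cells. Atp6v0d2 encodes a subunit of the proton pump of lysosomes and Mmp12 is the macrophage elastase. The next leading genes of these cells are Mmp8, Spp1 and Mmp13. They met the marker limits for the name hypoxic macrophage-like, with 5 markers detected and a score of 1. The naming rule left them unnamed because their leading genes held more markers of another state.

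**Figure D3:**
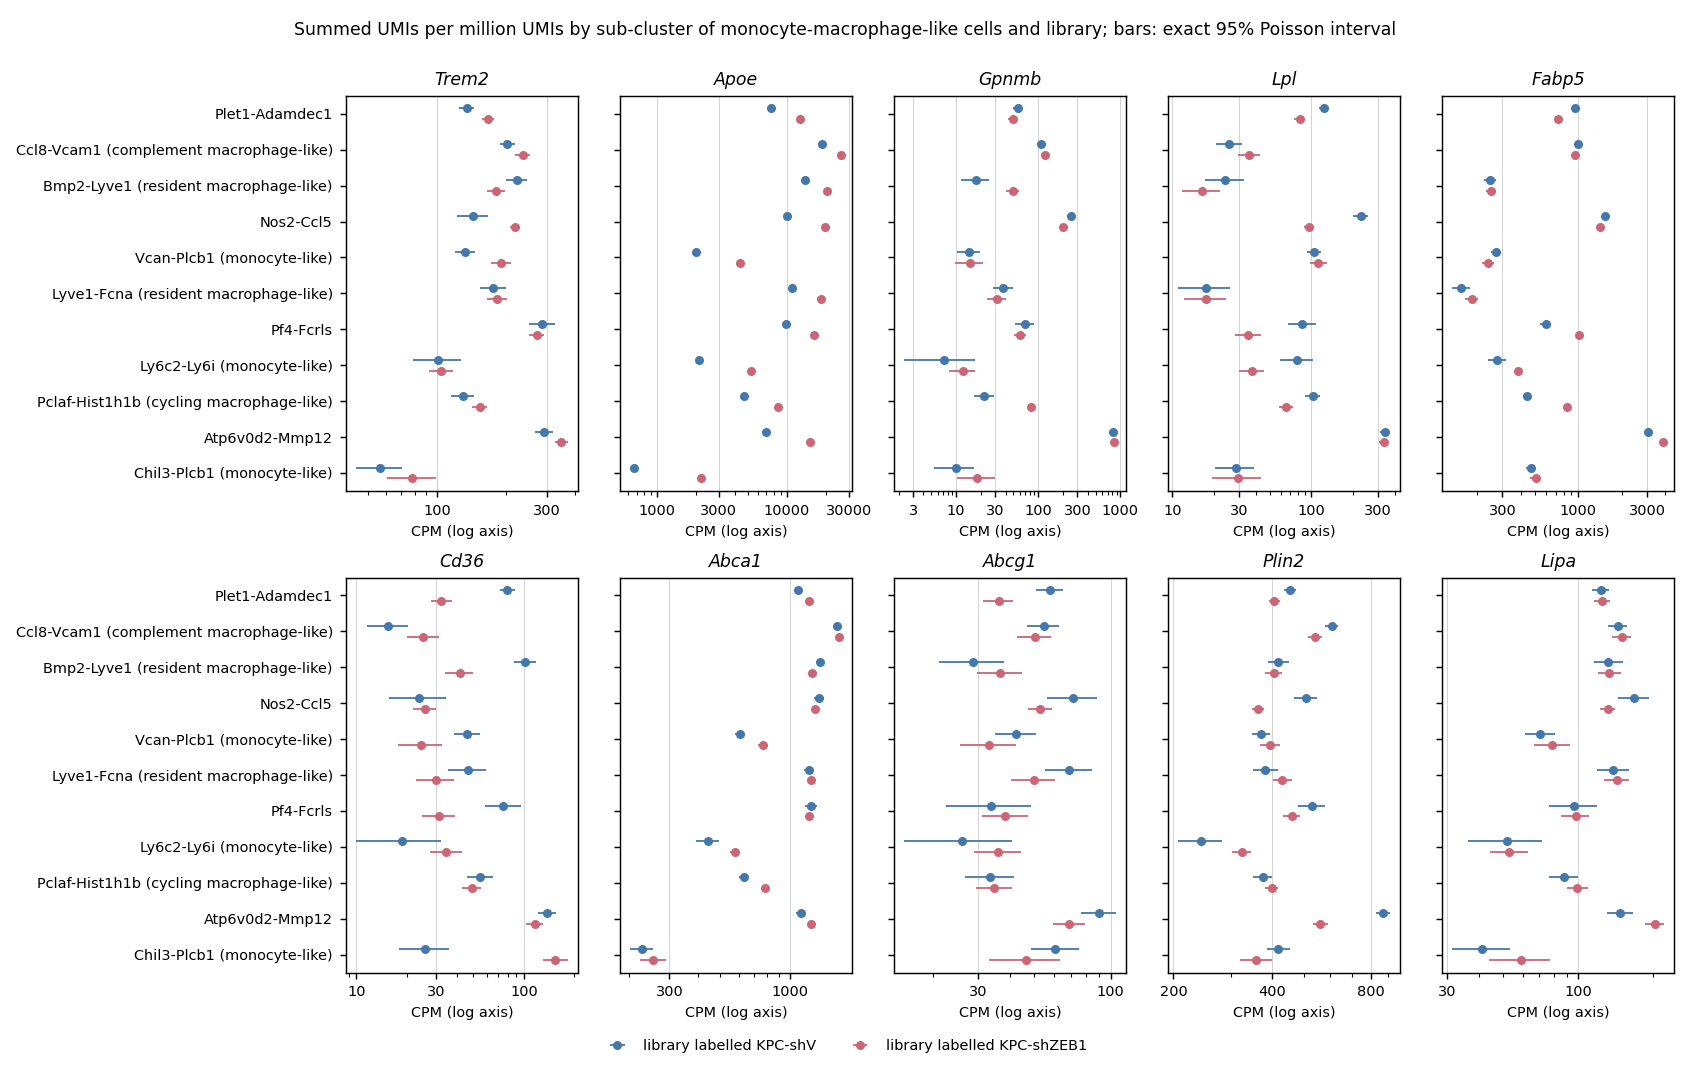
Level of each member in CPM (log axis) in 11 sub-clusters of monocyte-macrophage-like cells named by leading genes; blue points are the library labelled KPC-shV and red points that labelled KPC-shZEB1, and bars are exact 95% Poisson intervals. Gpnmb, Lpl and Fabp5 peak in the Atp6v0d2-Mmp12 cells, and Apoe and Abca1 in the Ccl8-Vcam1 cells.

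The 113 and 141 Atp6v0d2-Mmp12 cells were 6.99% and 5.60% of the class and held 7.78% and 6.83% of its UMIs. They carried 54.0% and 43.8% of the Gpnmb UMIs, at 809 and 843 CPM against 58.1 and 79.3 CPM in the other states pooled. They likewise held 28.2% and 27.4% of the Fabp5 UMIs, at 3052 and 3838 CPM against 655 and 747 CPM, and 25% and 27.4% of the Lpl UMIs, at 339 and 330.9 CPM against 85.8 and 64.1 CPM. Trem2 was 1.92 and 1.95 times its level in the other states, Plin2 1.98 and 1.44 times, Abcg1 1.80 and 1.60 times, and Lipa 1.33 and 1.80 times. Cd36 was 2.36 and 2.46 times its level in the other states. In the second library Plin2 stood at 561 CPM in the Atp6v0d2-Mmp12 cells and at 540.1 CPM in the complement macrophage-like cells, which do not separate beyond counting error. Apoe stood nearest to the other states with Abca1, at 0.828 and 1.10 times and at 1.11 and 1.16 times. Much of the level came from few cells: the 5 richest of the Atp6v0d2-Mmp12 cells held 54.6% and 23.7% of their Gpnmb UMIs, 37.6% and 23.1% of their Fabp5 UMIs and 50.9% and 31.6% of their Lpl UMIs. A Gpnmb UMI was nonetheless seen in 53.1% and 72.3% of these cells, against 22.0% and 30.4% of the class. Of the adipocyte markers, Adipoq, Plin1 and Lep were at 0 in these cells, and the summed level of all 5 was 82.2 and 101 CPM, against 19.3 and 17.9 CPM in the class. Nearly all of it was Fabp4, at 92.3 CPM with the libraries pooled, against 0.894 CPM of Cidec. The list of companions of lipid-associated macrophages, used below, also holds Fabp4.

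The same cells most often carried several members at once. After thinning to 1000 UMIs, at least 5 of the 10 members were detected in 20.4% (13.4–29.0%) and 31.9% (24.3–40.3%) of the Atp6v0d2-Mmp12 cells. In the whole class the share was 5.51% and 7.11%, and in granulocyte-like cells 0.364% and 0.547%. Among the Chil3-Plcb1 monocyte-like cells it was 0 of 135, an interval up to 2.70%, and 1 of 102. The Nos2-Ccl5 cells, 58 and 357 in number, reached 8.62% and 12.9%.

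**Figure D4:**
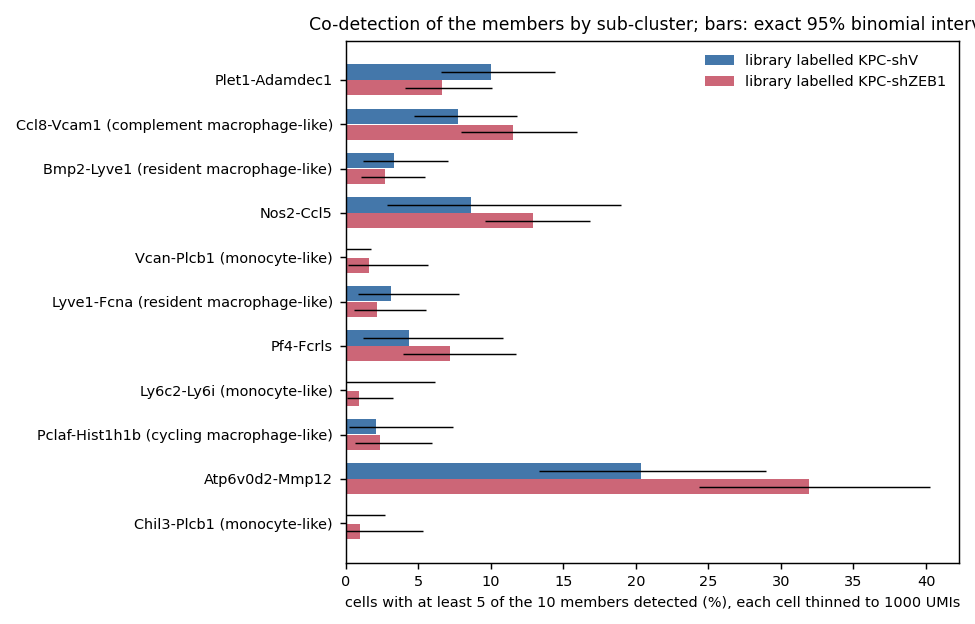
Percent of cells with at least 5 of the 10 members detected after thinning each cell to 1000 UMIs, in 11 sub-clusters; blue bars are the library labelled KPC-shV and red bars that labelled KPC-shZEB1, with exact 95% binomial intervals. The Atp6v0d2-Mmp12 cells stand at 20.4% and 31.9%, and the 3 monocyte-like sub-clusters at 1.60% or less.

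At the other end stood the monocyte-like cells. The Chil3-Plcb1 cells held 666 and 2205 CPM of Apoe, against 18902 and 26385 CPM in the complement macrophage-like cells. B-like cells held 569.6 and 1429.8 CPM, so that the former level lies little above theirs in the first library and further above in the second. No fold is given for this reason. Abca1 was at 227 and 256 CPM in the Chil3-Plcb1 cells, below the B-like levels of 333 and 366 CPM, and at 1606 and 1637 CPM in the complement macrophage-like cells. For Abca1 the B-like level is no floor, since T-like cells held only 66.2 and 76.9 CPM. Gpnmb was lowest in the Ly6c2-Ly6i monocyte-like cells, at 7.21 and 12.04 CPM from 5 and 30 UMIs, which is below the B-like levels of 10.3 and 22.8 CPM. Trem2 was above its B-like levels of 7.76 and 18.1 CPM in each state, from 56.3 and 78.1 CPM in the Chil3-Plcb1 cells to 293 and 347 CPM in the Atp6v0d2-Mmp12 cells. In the first library the Pf4-Fcrls cells, at 287 CPM, did not separate from the latter beyond counting error. The resident macrophage-like cells held little Lpl, between 16.3 and 23.8 CPM, and Fabp5 was lowest in their Lyve1-Fcna cells, at 156 and 183 CPM.

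Within states, the ratio of Apoe was above 1 in all 11, with every interval clear of 1. It ran from 1.40 (1.38–1.41) in the complement macrophage-like cells to 3.31 (3.06–3.58) in the Chil3-Plcb1 cells. With the level of B-like cells subtracted it stayed above 1 in all 11, from 1.36 to 8.01, the latter in the Chil3-Plcb1 cells. Their 666 CPM in the first library lies little above the B-like 569.6 CPM, and in the second the levels were 2205 and 1429.8 CPM. Trem2 was higher in the library labelled KPC-shZEB1 with an interval clear of 1 in 6 states and lower in 1, from 0.811 (0.707–0.932) in the Bmp2-Lyve1 cells to 1.52 (1.29–1.80) in the Nos2-Ccl5 cells.

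**Figure D5:**
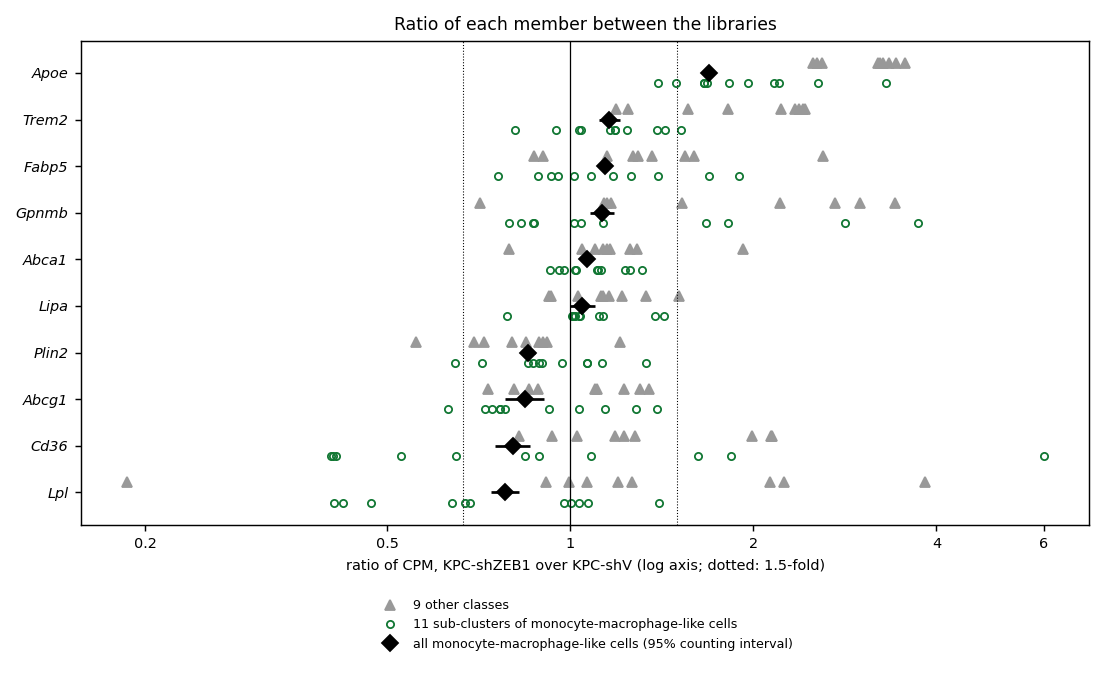
Ratio of CPM, KPC-shZEB1 over KPC-shV (log axis), for each member; black diamonds are all monocyte-macrophage-like cells with 95% counting intervals, green circles their 11 sub-clusters, grey triangles the 9 other classes, and dotted lines 1.5-fold. Every Apoe point lies above 1, and the sub-clusters of Cd36 spread from 0.404 to 6.0.

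No other member kept 1 direction over the 11 states. Plin2 was lower with an interval clear of 1 in 6 states and higher in 2. In the Atp6v0d2-Mmp12 cells its levels were 868 and 561 CPM, which gives 0.646 (0.602–0.694), and 97.3% and 97.2% of the cells carried a UMI. Lpl was lower in 5 states and higher in 1, with ratios of 0.423 (0.365–0.491) in the Nos2-Ccl5 cells and 0.976 (0.879–1.08) in the Atp6v0d2-Mmp12 cells, where its level was highest. Without the 5 cells richest in Lpl in each library, these ratios were 0.528 and 1.34. Most states had fewer cells labelled KPC-shV, such as 58 against 357 Nos2-Ccl5 cells. Leaving out 5 cells from each library then takes a larger share of the smaller one, which by itself can raise the ratio.

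Fabp5 was higher in 4 states and lower in 3. The cycling cells held 442 and 838 CPM (ratio 1.90, 1.77–2.03) and the Plet1-Adamdec1 cells 949 and 722 CPM (ratio 0.761, 0.729–0.793). Gpnmb, in the Atp6v0d2-Mmp12 cells where its level was highest, had a ratio of 1.04 (0.975–1.11), and of 1.63 without the 5 cells richest in it in each library. Its ratio of 3.73 (2.79–5.06) in the cycling cells rested on 54 and 365 UMIs, of which 5 cells held 51.9% and 46.8%, and was 4.03 without such cells. Cd36 had the widest spread, from 0.404 (0.338–0.481) in the Plet1-Adamdec1 cells to 6.0 (4.13–8.92) in the Chil3-Plcb1 cells. The latter rests on 36 and 136 UMIs, of which 5 cells held 63.9% and 50.7%, and was 8.24 without the 5 richest cells. Without the 5 richest cells Cd36 was higher in 7 of 10 states, where it had been higher in 4 of 11, and the Bmp2-Lyve1 ratio turned from 0.408 to 1.46. A fixed 5 cells is a larger share of the smaller library, here 181 against 260 Bmp2-Lyve1 cells. The part of this in the changes of Cd36 and Gpnmb was not tested.

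Abca1 differed little in the states where it was high, with 1.02 (0.982–1.06) in the complement macrophage-like cells. It was higher with an interval clear of 1 in 5 states, up to 1.31 (1.16–1.49) in the Ly6c2-Ly6i cells, and lower in 1. Abcg1 was lower in 4 states and higher in none, with 0.629 (0.524–0.754) in the Plet1-Adamdec1 cells. Lipa was higher in 1 state and lower in 1, with 1.38 (1.19–1.60) in the Atp6v0d2-Mmp12 cells and 0.788 (0.672–0.927) in the Nos2-Ccl5 cells.

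The rest of the pathway was taken from 9 lists, which hold none of the members. No gene of them passed 1.5-fold in either direction in monocyte-macrophage-like cells. Over all 7871 genes only 2.1% were at least 1.5-fold higher and 0.711% lower, so the absence says little for lists this short. The median log2 ratio of all 7871 genes was 0.01. Of the LXR genes and targets, which respond to sterols, 9 of 9 were measured with a median log2 ratio of -0.04. Pltp, a phospholipid transfer protein, was highest at 1.37 (1.31–1.45) and Mylip, which marks the LDL receptor for breakdown, lowest at 0.824 (0.764–0.888). The median of the 11 measured genes of cholesterol synthesis and LDL uptake was 0.08, with Sqle, squalene epoxidase, at 1.31 (1.12–1.54) and Cyp51 at 1.29 (1.19–1.40). Insig1 was the lowest of them, at 0.890 (0.815–0.973). Of the PPAR gamma genes and targets, 5 of 8 were measured with a median of -0.14. Acsl1, which activates fatty acids, was at 1.40 (1.30–1.51), and the receptor partner Rxra at 0.830 (0.737–0.934).

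The genes of fatty acid uptake and lipid droplets, 9 of 13 measured, had a median of -0.14. Lipe, a droplet lipase, stood at 1.31 (1.12–1.52), and Soat1, which esterifies cholesterol, at 0.839 (0.807–0.872). For the lysosomal genes, 13 of 14 measured, the median was -0.004, with Gla at 1.12 and Psap, the saposin precursor, at 0.869. The Trem2 signalling partners, 8 of 8 measured, had a median of -0.04, and the adaptor Tyrobp had 1416 and 1326 CPM, for a ratio of 0.936 (0.924–0.949). Trem1 was the highest of them, at 1.22 (1.15–1.29). Among the companions of lipid-associated macrophages, 9 of 11 measured, the median was -0.14. Spp1, osteopontin, stood at 1617 and 1275 CPM, a ratio of 0.788 (0.778–0.799), and Ctsl, a lysosomal protease, at 0.748 (0.734–0.763). These were the lowest of the list, and the highest were Cd63 at 1.11 (1.09–1.13) and Ctsb at 0.955 (0.944–0.967). The lipoprotein and receptor genes, 7 of 12 measured, had a median of 0.06, with Lmf1, which helps Lpl to fold, at 1.42 (1.21–1.67) and Sorl1 at 0.846. Of the adipocyte markers only Fabp4 was measured, at 0.907 (0.803–1.02). The lists share genes, Fabp4 among them.

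Each member was also compared with all genes that reached 50 CPM in some unit, over 20 units of 10 classes by 2 libraries, by the Pearson correlation of log2(CPM + 1). Units of 1 library share its depth and its free RNA, so the correlations are descriptions. Apoe was most like C1qb (0.985), C1qa and Ccl8, and Trem2 most like C1qc (0.973), Msr1 and Arg1. Gpnmb was most like the lysosomal phospholipase gene Pla2g15 (0.913), Inhba and Egr2, and Lipa most like Grn (0.892), Entpd7 and Selenop. Lpl was most like Igf1 (0.933), Spon1 and Cd302. Fabp5 came nearest to Pip5k1c (0.936), Ppt1 and Etv6, and Cd36 to Agpat4 (0.919), Prcp and Stx12. The nearest genes of Plin2 were Fnip2 (0.931), Morrbid and Plk3, those of Abcg1 were Rap1b (0.939), Pde4b and Crlf2, and those of Abca1 were Fnip1 (0.871), Slc31a1 and Atp6ap1.

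Between the members themselves, over the 22 units of 11 states by 2 libraries, the highest correlations were those of Apoe with Abca1 (0.925), Abca1 with Lipa (0.891) and Gpnmb with Fabp5 (0.851). Apoe with Lpl gave -0.11 and Cd36 with Abca1 -0.09.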

How the data were processed

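The deposited values are raw UMI counts, made by the authors from 10x 3' libraries. The submitters' processing notes name Cell Ranger 7.0.1 and mm10; whether introns were counted is not given in the sources used here. The libraries held 12594 and 13271 barcodes with 130941086 and 143461224 UMIs; 46 barcodes were shared. The study's limits on cells were kept: no fewer than 500 genes, between 1000 and 60000 UMIs, and no more than 15% of UMIs from mitochondria. Scrublet (scanpy 1.11.5, score above 0.2) removed 315 and 343 doublets, where the study used another caller. Leiden clustering (leidenalg 0.10.2, resolution 1) used 30 components of 3000 variable genes and 20 neighbours, without integration. Sub-clusters used 20 components of 2000 genes.

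A cluster was named X-like where at least 3 markers were detected in at least 10% of its cells at 3 times the median cluster's CPM (2 times for sub-clusters), with a mean score of at least 0.25. It stayed unnamed where its 10 leading genes held more markers of another name. The factor for sub-clusters, the mean score and the doublet score were set after the data were seen. Names may differ from the study's. Summed UMIs have exact Poisson intervals, shares Clopper-Pearson intervals and ratios exact conditional intervals. Past 1.5-fold counted as called, over genes with a mean of at least 10 CPM.

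Members, lists and tests were chosen with earlier results of these data known. Named genes are the members, the 2 highest and 2 lowest ratios of each list, the 3 genes most like each member, Zeb1 and leading markers; of these, those with the clearest roles are printed. On counts for 7871 genes simulated as Poisson, which the intervals assume, 95.3% of the intervals held the true ratio. This checks the calculation only, since the gathering of UMIs in few cells was not simulated. Of 32285 gene identifiers, 32158 were in GENCODE M21.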

Additional observations from a re-analysis of the deposited data

Results flagged for a closer look

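Gpnmb and Fabp5 moved in opposite directions in monocyte-macrophage-like and granulocyte-like cells, with both intervals clear of 1. Only these 2 classes were compared for this flag. The difference was not tested, since each group is 1 library. Gpnmb was higher in the library labelled KPC-shZEB1 in monocyte-macrophage-like cells (1.13) and lower in granulocyte-like cells (0.709, 0.642–0.783), so that the first ratio was 1.59 times the second. Fabp5 had ratios of 1.14 and 0.902 (0.867–0.938), the first 1.26 times the second. With the B-like level of the same library subtracted, the ratios in monocyte-macrophage-like cells were only 1.02 for Gpnmb and 1.03 for Fabp5. That subtraction was not made for granulocyte-like cells. Over all 6977 genes with at least 10 CPM in granulocyte-like cells, the median log2 ratio was 0.20, and 14.1% were at least 1.5-fold higher. Other members also differed in direction between classes. Cd36 had 0.804 in monocyte-macrophage-like and 1.19 (1.02–1.38) in dendritic-like cells, and Abca1 had 1.07 and, in endothelial-like cells, 0.792 (0.721–0.869).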

How the results depend on the processing

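Over 17 other settings the median log2 ratio of the members stayed between 0.04 and 0.09. Apoe was the 1 member past 1.5-fold higher in 15 of them, at 1.63 to 1.73; the count was 0 at 2-fold and 0 with Apoe left out of the list. None was past 1.5-fold lower except with the B-like level subtracted, where Cd36, at 0.643, made the count 1; Abcg1, below the B-like level in both libraries, then gave no ratio. After thinning Cd36 reversed, to a log2 ratio of 0.069, and Lipa, whose interval held 1, went to -0.025. Over all genes, 40 were higher and 24 lower at a minimum of 50 CPM, and 59 and 15 at 2-fold. Among states, the share with Lipa higher went to 45.5% after thinning, with Gpnmb higher to 50%, Fabp5 to 36.4% and Abca1 to 50% after subtraction, and Cd36 to 70% without the 5 richest cells. The B-like level subtracted for Abca1, 333 and 366 CPM, was well above that of T-like cells, 66.2 and 76.9 CPM. Leaving out the sub-cluster led by T-cell genes, the 5 richest cells or Apoe was chosen after seeing the data. The 5 cells were a larger share of whichever library had fewer cells in a state. Depth limits the sparse members within states, where Cd36 in the Chil3-Plcb1 cells rested on 36 UMIs in the smaller sum. No paired analysis was possible because each group holds 1 library.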

Other observations

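Some values belong to cells too few for the comparisons. Fabp5 was at 1857 CPM (1691–2034) in the 14 pericyte or smooth muscle-like cells of the library labelled KPC-shV and at 1121 CPM (971–1286) in the 10 of the library labelled KPC-shZEB1. In the unnamed Ccl17-Plet1 sub-cluster of the monocyte-macrophage-like cells, with 49 and 165 cells, Cd36 was at 193 CPM (166–224) and 176 CPM (161–192). These levels lie above the highest among the 11 states compared, 137 and 154 CPM. The 10 dendritic markers summed to 630 and 557 CPM in this sub-cluster, against 154 and 201 CPM in the class. Apoe in the same cells was at 1901 CPM (1813–1992) and 2759 CPM (2698–2820), and Gpnmb at 79.4 and 17.2 CPM, the former with 5 cells holding 92% of 74 UMIs.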
